A study of Mus musculus with 4 samples.

Results

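Chemokines are small secreted proteins that attract cells carrying matching receptors, and 8 genes of that system were followed across the cell types of the fetal mouse penis. They are the ligand genes *Cxcl1*, *Cxcl12*, *Cxcl14*, *Ccl2*, *Ccl7* and *Ccl11*, the receptor gene *Cxcr4* and the scavenger receptor gene *Ackr3*. The 8 members were matched by symbol among 32287 listed features, of which 32285 are Ensembl genes, and each symbol had 1 entry.

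Penises of male embryos at E16.5, the stage at which the urethra closes, were dissociated with enzymes and profiled by droplet single-cell RNA sequencing (10x Genomics 3′ chemistry) in 4 libraries. The 2 DTA- libraries, labelled WT, came from control embryos that lack the *Nr5a1-Cre* transgene and carry *RosaDTA +/f*, a diphtheria toxin gene behind a stop cassette. The 2 DTA+ libraries came from *Nr5a1-Cre Tg/+;RosaDTA +/f* embryos, in which the toxin kills cells whose lineage has expressed *Nr5a1*. The ablation mice also came from a cross with the *Rosa-LSL-tdTomato* reporter, whose transcripts were counted in the DTA+ libraries only. Both groups carry the toxin allele, which is silent without Cre. They differ in the Cre transgene and in reporter transcripts. *Nr5a1* is also active in the testis and adrenal. The study reports that the adrenals were lost and the testes much smaller, with possible secondary effects of androgen loss on the external genitalia. Most ablated males given testosterone in the study still had severe hypospadias. It holds the lost cells to be the major cause of that defect, with some of it possibly due to androgen loss. Any difference between the groups includes that of the whole embryo. The labels do not say that the 2 replicates of a group came from separate embryos, and p-values measure the spread between these libraries.

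CXCL12 binds 2 receptors. CXCR4 signals through G proteins and guides migrating cells, whereas ACKR3 takes CXCL12 up and removes it from the surroundings. CXCL1 attracts neutrophils and its gene is a target of NF-κB. CCL2 and CCL7 attract monocytes, CCL11 attracts eosinophils, and CXCL14 is a ligand made by many epithelia and by embryonic mesenchyme.

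The 3 ligand genes on which the genotype results turn differ in the sequence just upstream of their start. *Cxcl1* (ENSMUSG00000029380, protein coding) lies on chromosome 5 at 90891241 to 90893115 on the plus strand, *Cxcl12* (ENSMUSG00000061353, protein coding) on chromosome 6 at 117168535 to 117181367 on the plus strand, and *Cxcl14* (ENSMUSG00000021508, protein coding) on chromosome 13 at 56288643 to 56296551 on the minus strand, in GRCm38 with the GENCODE annotation. The 250 bases before each RefSeq start (GRCm38.p6) follow, written 5′ to 3′ on the strand of the gene. Capitals mark matches on either strand to the NF-κB motif (GGG, any 2 bases, TTTCC) or the SP1 motif GGGCGG.
Cxcl1, chr5:90890995-90891244, plus strand: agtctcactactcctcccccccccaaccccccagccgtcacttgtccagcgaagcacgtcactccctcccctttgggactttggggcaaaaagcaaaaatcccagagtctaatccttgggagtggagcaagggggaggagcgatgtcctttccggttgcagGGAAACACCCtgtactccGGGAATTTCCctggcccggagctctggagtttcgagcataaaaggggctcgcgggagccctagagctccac
Cxcl12, chr6:117168285-117168534, plus strand: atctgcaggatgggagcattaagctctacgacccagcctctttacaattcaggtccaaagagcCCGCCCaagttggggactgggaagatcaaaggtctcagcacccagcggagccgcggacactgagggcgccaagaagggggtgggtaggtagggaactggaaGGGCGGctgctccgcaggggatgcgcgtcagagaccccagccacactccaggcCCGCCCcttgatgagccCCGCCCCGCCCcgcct
Cxcl14, chr13:56296552-56296801, minus strand: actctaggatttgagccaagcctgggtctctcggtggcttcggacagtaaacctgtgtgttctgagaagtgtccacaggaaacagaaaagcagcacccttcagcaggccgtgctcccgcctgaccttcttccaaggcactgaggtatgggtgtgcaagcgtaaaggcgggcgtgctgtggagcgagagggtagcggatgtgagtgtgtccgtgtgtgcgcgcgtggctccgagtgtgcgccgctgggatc
The *Cxcl1* window held 2 NF-κB matches, which start 89 and 71 bases before the start site, and a match was present in 1.412% of 32851 windows of the same length. The *Cxcl12* window held 5 SP1 matches at 187, 86, 33, 16 and 11 bases, and the last 2 overlap at a shared base. An SP1 match was present in 32.74% of windows. Neither these motifs nor TATAAA (in 12.37% of windows) or the AP-1 motif TGANTCA (in 6.749%) matched in the *Cxcl14* window. A match is a description of letters and says nothing about binding.

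The files held 47040 cells, between 11343 and 12580 per library, with 50779551 to 73577028 unique molecular identifiers (UMIs, counted molecules) per library. The study's limits on UMIs and on mitochondrial and haemoglobin transcripts kept 31132 cells, and 29722067 to 33839196 UMIs per library. The share of cells kept was unequal, at 52.2% and 67.8% in DTA- replicates 1 and 2 and 68.4% and 77.7% in DTA+ replicates 1 and 2. Cells at or over the upper UMI limit numbered 2689 in DTA- replicate 1 and 1149 to 1298 in the other libraries. DTA- replicate 1 was the deepest, with a median of 4700 UMIs per kept cell against 3551 to 4077 in the other libraries. Any pair of libraries shared 31 to 48 cell barcodes, and 184 kept cells carried a barcode also kept in another library. *tdTomato* transcripts were counted 0 times in both DTA- libraries and 3579 and 3140 times in the DTA+ libraries, while *Nr5a1* itself had 1 or 2 UMIs in each library and checks nothing. The study describes low, leaky *tdTomato* transcript in most cells, so these UMIs alone do not mark surviving lineage cells. *Gt(ROSA)26Sor*, the locus of the inserted alleles, had 934 and 873 UMIs in the DTA- libraries against 3140 and 4038 in the DTA+ libraries.

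Cells were divided into 27 clusters without use of the chemokine genes, and clusters were named X-like only from marker genes, which left 8 clusters with no name. They formed 23 populations, of which 19 had at least 20 cells in every library and could be tested between the genotypes, 12 of them mesenchymal. Levels are given as CPM, the UMIs of a gene in every 1000000 UMIs of the genes tested in the summed cells (of all genes counted where no test was made), scaled by the TMM factors of edgeR. The 4 populations without a test had unequal numbers of cells in the genotypes. Cluster 12 held 100 and 14 DTA- cells against 287 and 652 DTA+ cells, and cluster 16 held 3 and 8 against 560 and 311. The subdermal prepuce-like cells numbered 259 and 836 against 33 and 16, and the smooth muscle-like cells 139 and 196 against 33 and 10. In these sums, more molecules per cell and a different mix of cells within a population cannot be told apart.

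Across cell types, the 8 genes fell into mesenchymal and epithelial genes on one side and genes of vessel-associated and blood cells on the other. The plot of levels by population and library shows *Cxcl12*, *Cxcl14* and *Ackr3* over most of the mesenchyme, *Ccl2*, *Ccl7* and *Cxcr4* highest in the macrophage-like or mast cell-like cells, and *Cxcl1* and *Ccl11* highest in the pericyte-like cells. These levels are descriptions without a test, because the clusters were drawn from the same cells.

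**Figure D1:**
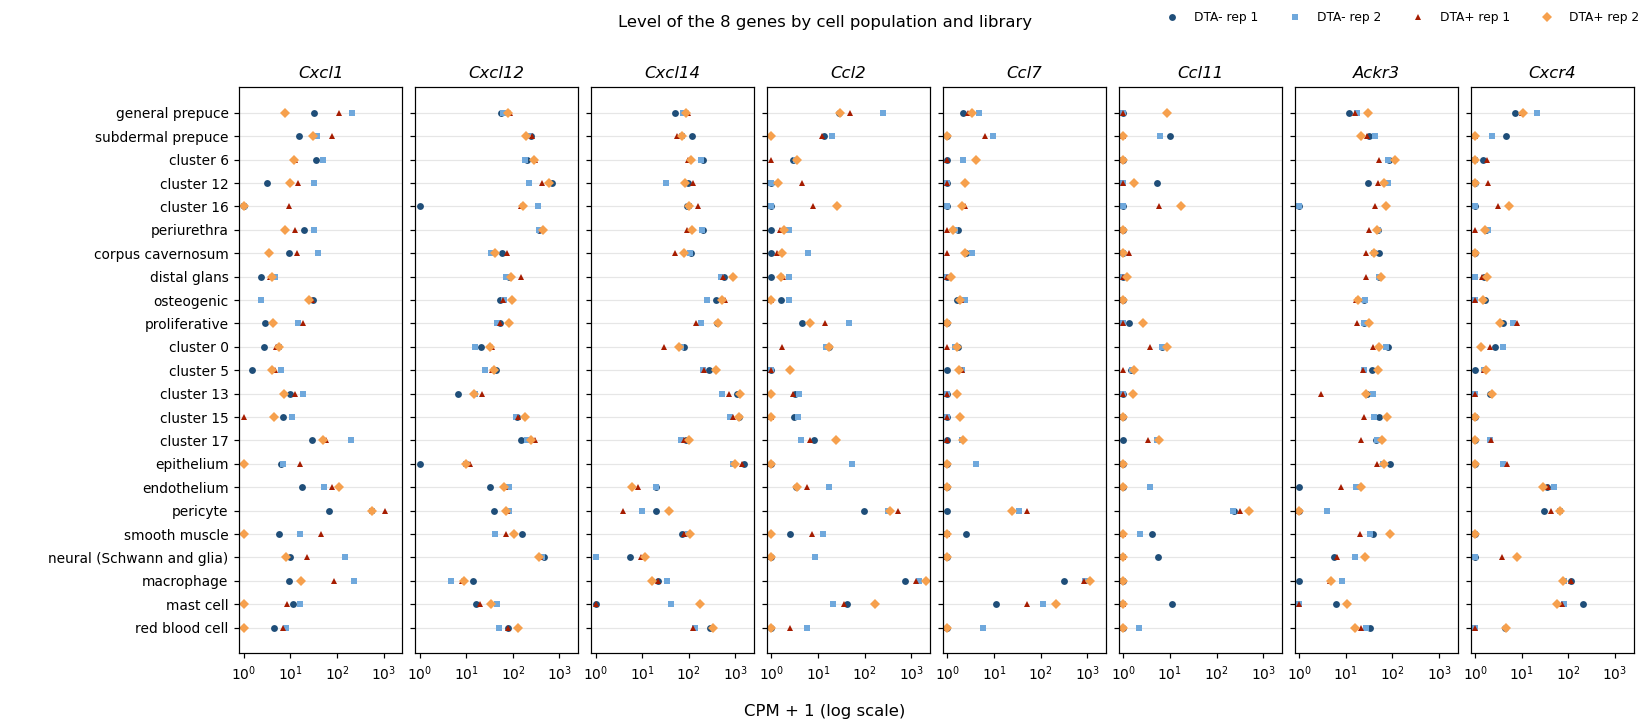
Level of each of the 8 genes (panels) in each of the 23 populations (rows), as CPM plus 1 on a logarithmic horizontal axis, with 1 point per library marked by shape and colour. *Cxcl14* reached a mean of 1188 CPM in the epithelium-like cells, *Ccl2* 1379 CPM in the macrophage-like cells and *Cxcl1* 566 CPM in the pericyte-like cells, and *Ccl11* had a mean above 10 CPM in the pericyte-like cells alone.

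*Cxcl12*, which encodes the ligand of CXCR4 and ACKR3, was expressed most in cluster 12, a mesenchymal cluster with *Ccn3* among its leading genes, at 476 CPM ± 204 (SD, n = 4 libraries). The neural cells, named from Schwann and glial markers, followed at 409 ± 47.4, the periurethra-like cells at 401 ± 42.6, and cluster 6, led by *Thbd* and *Ptgis*, at 243 ± 57.9. The first 3 of these did not differ beyond their spread. The lowest levels were in the macrophage-like cells at 7.73 ± 3.72 CPM and the epithelium-like cells at 7.36 ± 5.02, which overlapped.

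Within the periurethra-like cells, *Cxcl12* belonged mainly to 1 of the 2 joined clusters. Cluster 11, led by *Mup17*, *Epha3* and *Tcf21*, held 540 and 522 CPM in the DTA- libraries and 645 and 718 in the DTA+ libraries. Cluster 9, with *Sall3* among its leading genes, held 184 and 211 CPM against 336 and 242. The DTA+ libraries were the higher ones in both clusters, and neither difference was called.

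*Cxcl14* was highest in the epithelium-like cells at 1188 CPM ± 298 (SD, n = 4), followed by cluster 15, led by *Prss35* and *Hand2*, at 1001.6 ± 199, and cluster 13, led by *Rprm* and *Wnt10a*, at 900.4 ± 337. These 3 did not differ beyond their spread. The distal glans-like cells held 625 ± 190 CPM and the osteogenic-like cells 436 ± 159. At the low end, the endothelium-like cells held 12.5 ± 7.46 CPM and the neural cells 5.82 ± 4.58.

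*Cxcl14* transcripts were also counted in the red blood cell-like cells, although red blood cells should lack them. There 47.6%, 34.9%, 27.6% and 60.0% of cells had at least 1 UMI in DTA- replicates 1 and 2 and DTA+ replicates 1 and 2, at a median of 4732 UMIs per cell. The matching shares in the endothelium-like cells, at a median of 3340 UMIs, were 2.82%, 5.19%, 2.34% and 2.17%. The share in red blood cell-like cells thus differed from that in the endothelium-like cells in every library, and the 95% exact binomial intervals, which cover counting error only, were 20.9 to 35.1% and 0.486 to 6.70% in DTA+ replicate 1, where the red blood cell share was lowest. The level in red blood cell-like cells (280, 134, 124 and 333 CPM) was close to that over all cells (299, 170, 198 and 363 CPM) in each library. It did not follow the genotype (0.05 ± 0.37 on the log2 scale, adjusted p = 0.99, edgeR). The macrophage gene *Pf4* stood at 0, 7.05, 1.53 and 0 CPM in these cells, against 44.3, 67.0, 43.6 and 39.7 over all cells. The cells had also passed the haemoglobin limits. Whether their *Cxcl14* is stray or belongs to other cells that carry haemoglobin transcripts was not tested. Their levels are therefore not an established background.

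*Cxcl1* was highest in the pericyte-like cells at 566 CPM ± 402 (SD, n = 4). The general prepuce-like cells held 89.1 ± 90.6 CPM, the macrophage-like cells 84.3 ± 101 and cluster 17, led by *Kera* and *Nefl*, 82.6 ± 77.0. The SD was as large as the mean or nearly so in these 3 populations, and in each of them DTA- replicate 2 was the highest library. Over all cells, *Cxcl1* stood at 11.7 and 50.2 CPM in the DTA- libraries and at 38.4 and 11.8 in the DTA+ libraries, with 1 high and 1 low library in each genotype.

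*Ccl2* was led by the macrophage-like cells at 1379 CPM ± 544 and the pericyte-like cells at 317 ± 171, whose ranges did not overlap. *Ccl7*, which lies on chromosome 11 at 82045712 to 82047525, just beyond *Ccl2* at 82035571 to 82037453, was highest in the macrophage-like cells at 803 ± 350 CPM, with 95.8 ± 88.1 in the mast cell-like cells and 26.5 ± 20.8 in the pericyte-like cells. The mast cell-like cluster also carried the neutrophil genes *S100a8* and *S100a9* among its leading genes. *Ccl11*, the third gene of this row at 82057823 to 82062955, held 318 ± 126 CPM in the pericyte-like cells and 5.44 ± 1.95 in cluster 0, led by *Sostdc1*, its next population.

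Among the receptors, *Cxcr4* (chromosome 1, 128588199 to 128592293, minus strand) was highest in the mast cell-like cells at 105 CPM ± 70.2 and the macrophage-like cells at 95.2 ± 21.6, which overlapped. It stood at 50.2 ± 18.3 in the pericyte-like and 36.1 ± 8.33 in the endothelium-like cells, and at 0 in all libraries in the corpus cavernosum-like cells and cluster 15. *Cxcr4* was counted in 29.2%, 17.5%, 34.4% and 22.0% of macrophage-like cells (median of 5317.5 UMIs) and in at most 1.67% of red blood cell-like cells of any library.

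*Ackr3* (chromosome 1, 90203980 to 90216751, plus strand) was distributed differently. It was highest in cluster 6 at 82.1 CPM ± 25.8, the epithelium-like cells at 64.7 ± 17.1 and cluster 0 at 59.7 ± 19.3, which did not differ beyond their spread, and it stood at 3.64 ± 2.94 in the macrophage-like cells and 0.758 ± 1.52 in the pericyte-like cells. Over 23 clusters with at least 20 cells in every library, Pearson's r on log2(CPM + 10), here without TMM factors, in the DTA- mean was -0.78 between *Ackr3* and *Cxcr4*, 0.66 between *Ackr3* and *Cxcl14*, 0.77 between *Ccl2* and *Ccl7*, and 0.78 between *Ccl7* and *Cxcr4*. The points share libraries and differ in depth, and these values carry no test.

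By the same measure, 10521 genes were ranked for likeness to each member. *Ccl11* was most like *Il34* (r = 0.99), *Higd1b* (0.99) and *Cyp4b1* (0.98), and *Ccl7* was most like *Arl11* (0.99), *Cd300a* (0.99) and *Oas1a* (0.98). For *Cxcr4* the genes were *Tap2* (0.93), *Sh3bgrl3* and *Gm36738* (0.92 each), and for *Ackr3* they were *Igfbp2* (0.88), *Ptprd* and *Slc4a3* (0.86 each). *Cxcl14* was most like *Ptges* (0.85), *Flywch2* (0.83) and *Crabp2* (0.82), *Cxcl12* most like *Ppp2r2b* and *Prss12* (0.84 each) and *Scara5* (0.80), *Ccl2* most like *Cxcl10*, *Plac8* (0.85 each) and *Efhd2* (0.83), and *Cxcl1* most like *Atf3* (0.79), *Gamt* and *Phlda1* (0.77 each). *Atf3* belongs to the list of dissociation stress genes. The values for *Ccl11* rest mainly on a single cluster, the pericyte-like one (231 and 224 CPM in the DTA- libraries). Those for *Ccl7* rest mainly on the macrophage-like one (311 and 917 CPM).

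The first comparison asked whether loss of *Nr5a1*-lineage cells changed the members in any cell population. *Cxcl14* fell in 3 mesenchymal populations and rose in 1, and in cluster 6 *Cxcl1* fell and *Cxcl12* rose. In all, 6 of 70 tests of a member in a population passed an adjusted p of 0.05 (edgeR quasi-likelihood test, Benjamini-Hochberg over all genes of the population), against 2.81% of all gene and population pairs over the 19 populations. Over all cells 0 of 8 members passed by edgeR, against 0.488% of 15977 genes, and over all mesenchymal cells 0 of 8 passed, against 1.16% of 15201 genes. In each of these sums 1 member, *Cxcl12*, had an unadjusted p under 0.05, and DESeq2 called 0 members.

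**Figure D2:**
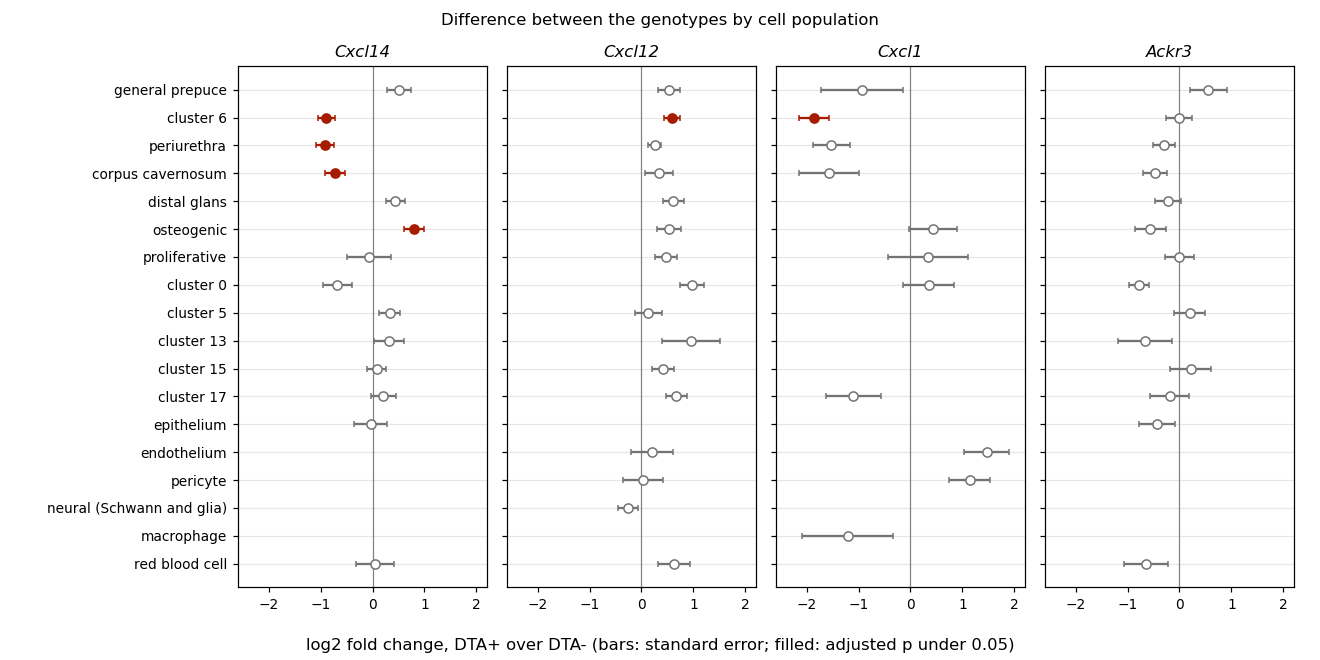
Log2 fold change of DTA+ against DTA- (horizontal axis) with its standard error (bars) for *Cxcl14*, *Cxcl12*, *Cxcl1* and *Ackr3* (panels) in each population where the gene was tested (rows), with called differences filled. The 12 mesenchymal estimates of *Cxcl12* lie to the right of 0, between 0.13 and 0.98, whereas those of *Cxcl14* span -0.92 to 0.79.

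Cluster 6 held 3 of the 6 calls and 1750 cells, 406 to 453 per library. Its leading genes include *Thbd*, *Ptgis*, *Ndufa4l2*, *Mgp* and *Agtr2*, and no marker list named it. At a finer resolution (1.2) most of its cells fell into 2 clusters that divided them by genotype, one with 399 and 377 of the DTA- and 3 and 12 of the DTA+ cells, the other with 44 and 19 against 417 and 422. By the same marker rule the first of these was named subdermal prepuce-like, and the other had no name. The 3 differences therefore set cells side by side that this finer division held apart. In cluster 6 12.4% of 9954 genes were called, so a call there was more common than in the other populations with a called member. Among all genes tested there, 55.6% had groups that did not overlap. The share was 53.4% in the corpus cavernosum-like, 47.1% in the periurethra-like and 46.2% in the osteogenic-like cells.

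*Cxcl1* in cluster 6 stood at 34.9 and 49.0 CPM in the DTA- libraries and at 11.9 and 10.9 in the DTA+ libraries, from 76, 82, 15 and 17 UMIs. Both DTA+ libraries were below both DTA- libraries. The means were 41.9 ± 9.93 and 11.4 ± 0.674 (SD, n = 2 each), and *Cxcl1* fell by 1.86 ± 0.29 on the log2 scale (adjusted p = 0.000241, edgeR). The share of cells with a UMI was 10.6% and 12.6% against 2.73% and 3.31%, at a median of 3686.5 UMIs. In red blood cell-like cells it was 0.806% and 3.08% against 2.45% and 0 of 60 cells, which allows up to 5.0%. The DTA+ shares in cluster 6 were close to these. With cells of 7500 UMIs and above included, the cluster with most shared cells was led by *Kera* and *Ptgis*. Its Jaccard index with cluster 6 (shared cells over all cells of either) was 0.525, so the cells differ in part. *Cxcl1* there differed by -0.98 (adjusted p = 0.146, edgeR).

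*Cxcl14* in cluster 6 stood at 203 and 180 CPM in the DTA- libraries and at 96.5 and 110 in the DTA+ libraries. The groups did not overlap. The means were 192 ± 16.1 and 103 ± 9.37, and *Cxcl14* fell by 0.89 ± 0.17 on the log2 scale (adjusted p = 0.00138, edgeR). After thinning of each cell to 1000 UMIs, 16.6% and 17% of DTA- cells and 8.64% and 10.2% of DTA+ cells had a UMI, from 55.2%, 48.0%, 21.6% and 26.5% unthinned. The thinned shares in red blood cell-like cells were 21.0%, 10.8%, 6.13% and 20%, so in DTA- replicate 1 and in both DTA+ libraries cluster 6 did not stand clearly above the red blood cell-like cells by this measure. In the endothelium-like cells they were 2.11%, 2.96%, 0.781% and 1.09%.

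*Cxcl12* in cluster 6 went the other way, from 203 and 185 CPM to 302 and 283 CPM, again with no overlap. The means were 194 ± 12.7 and 293 ± 13.5, and *Cxcl12* rose by 0.59 ± 0.15 on the log2 scale (adjusted p = 0.0138). *Ackr3*, the fourth member tested there, stood at 85.0 and 80.6 CPM against 49.8 and 113, with a difference of -0.0029 ± 0.25 (adjusted p = 0.996). Its 2 DTA+ libraries lay on either side of the DTA- libraries.

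Distal glans markers moved with these differences in cluster 6, whereas the sum of subdermal prepuce markers overlapped between the genotypes. The summed level of 8 distal glans markers was 554 and 521 CPM in the DTA- libraries and 987 and 1066 in the DTA+ libraries, none of them at 0. That of 9 subdermal prepuce markers was 432 and 700.3 against 451 and 358. The part of these markers in the result was not tested. When cluster 6 was summed with the subdermal prepuce-like cluster, *Cxcl14* (-0.43, adjusted p = 0.257) and *Cxcl12* (0.44, adjusted p = 0.0903) were no longer called and *Cxcl1* was (-1.07, adjusted p = 0.032). With the genes called between the genotypes left out of the clustering, the cluster most like cluster 6 was led by *Kera* (Jaccard index 0.376). It gave -0.40 for *Cxcl14* (adjusted p = 0.178, edgeR), while *Cxcl1* (-1.57, adjusted p = 0.0244) and *Cxcl12* (0.54, adjusted p = 0.0362) were called. When the 5 clusters on the preputial side (3, 6, 10, 12 and 16) were summed, no member was called there.

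*Cxcl14* fell in the periurethra-like cells, the mesenchyme that surrounds the urethra. It stood at 205 and 186 CPM in the DTA- libraries and at 88.6 and 117 in the DTA+ libraries, without overlap. The means were 196 ± 13.1 and 103 ± 20.2, with a log2 fold change of -0.92 ± 0.17 (adjusted p = 0.0236, edgeR, 2.89% of 11018 genes called). The level was below that in the red blood cell-like cells of the same library in 3 of 4 libraries, all but DTA- replicate 2, and above that in the endothelium-like cells (19.2, 18.6, 6.98 and 5.12 CPM) in all 4.

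Both clusters of the periurethra-like cells showed the difference when tested alone. *Cxcl14* stood at 291 and 236 CPM against 105 and 161 in cluster 9 (-0.98, adjusted p = 0.0405), and at 123 and 139 against 55.7 and 67.3 in cluster 11 (-1.05, adjusted p = 0.00133). In the joined population the summed level of 6 general prepuce markers was 625 and 541 CPM in the DTA- libraries and 1356 and 1268 in the DTA+ libraries, and the 7 periurethra markers summed to 740 and 825 against 599 and 875. The part of the prepuce markers in the result was not tested. The call was lost without DTA- replicate 1 (adjusted p = 0.0791) and in thinned cells (0.153).

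In the corpus cavernosum-like cells, which carry the cartilage genes *Sox9*, *Col2a1* and *Col9a1*, *Cxcl14* stood at 109 and 105 CPM in the DTA- libraries and at 50.05 and 79.4 in the DTA+ libraries. The groups did not overlap, with means of 107 ± 2.48 and 64.7 ± 20.7. *Cxcl14* fell by 0.73 ± 0.20 on the log2 scale (adjusted p = 0.0344, edgeR, 7.13% of 11089 genes called). All 4 levels were below those in the red blood cell-like cells of the same library and above those in the endothelium-like cells. After thinning, 8.73%, 9.60%, 4.18% and 6.85% of cells had a UMI. These shares were below the thinned ones of the red blood cell-like cells and above those of the endothelium-like cells. These comparisons disagree, and whether the difference is one of expression in the corpus cavernosum-like cells was not tested. Without DTA+ replicate 1 the difference was -0.43 (adjusted p = 0.547), and with cells of 7500 UMIs and above it was -0.26 (adjusted p = 0.334).

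*Cxcl14* rose in the osteogenic-like cells, a population led by *Cpm*, *Hs3st3b1* and *Dlx5*. It stood at 390 and 240 CPM in the DTA- libraries and at 611 and 502 in the DTA+ libraries. DTA- replicate 2 was the lowest library and the groups did not overlap, with means of 315 ± 106 and 557 ± 76.9. The rise was 0.79 ± 0.20 on the log2 scale (adjusted p = 0.0378, edgeR, 2.92% of 9471 genes called). The summed level of the 5 osteogenic markers was 632 and 644 CPM against 356 and 487, and that of 18 dissociation stress genes was 15587 and 14180 against 22208 and 26034, and their part in the result was not tested.

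Of the 6 calls, the rise in the osteogenic-like cells was lost in the most alternatives, 6 of 19, among them leaving out DTA- replicate 2 or DTA+ replicate 1. In other clusterings the cluster with most shared cells stood for it. With cells of 7500 UMIs and above that was a cluster led by *Dsc3* and *Hs3st3b1* (0.09, adjusted p = 0.888, edgeR). Its overlap was low, with a Jaccard index (shared cells over all cells of either) of 0.329. Among finer clusters (resolution 1.2) it was one led by *Cpm* (0.28, adjusted p = 0.631, edgeR, index 0.607). Both clusterings also held a separate cluster named osteogenic-like, so neither value is that of the same cells. Of the tested cells, the finer cluster led by *Cpm* held 184 and 71 DTA- against 255 and 478 DTA+ cells. The finer cluster named osteogenic-like held 195 and 162 against 59 and 213. The part of this mix in the rise was not tested. In the distal glans-like cells *Cxcl14* stood at 580 and 481 CPM against 536 and 904 (0.44 ± 0.18, adjusted p = 0.197), and one of its 2 clusters, led by *Tac1*, gave a rise of 0.70 (adjusted p = 0.0441) when tested alone.

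**Figure D3:**
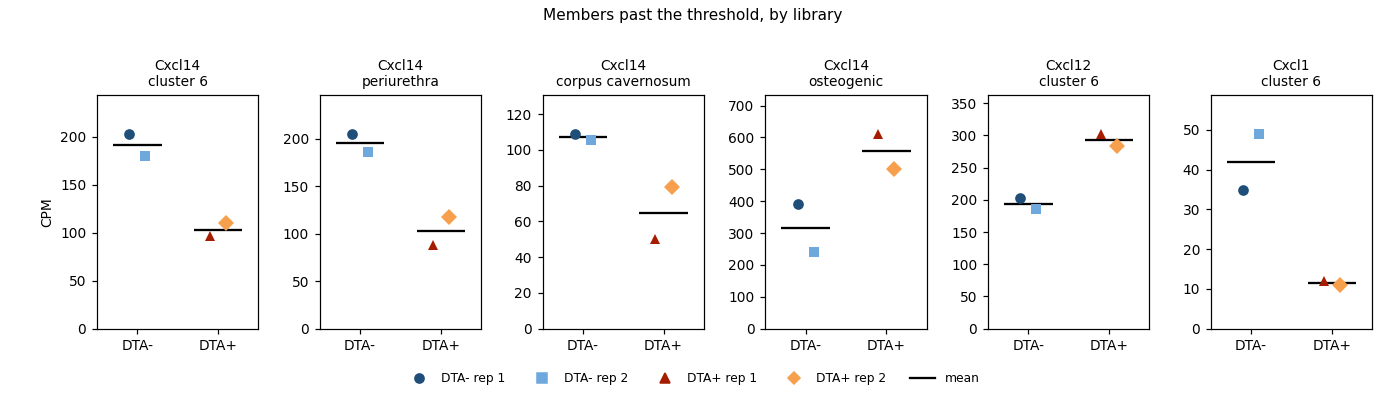
Level (CPM, vertical axis) of the members in each of the 4 libraries for the 6 called pairs of member and population, with the group mean as a horizontal line and each library as a point. In every panel both DTA+ libraries lie on the same side of both DTA- libraries. They lie below for *Cxcl1* and for *Cxcl14* outside the osteogenic-like cells, and above for *Cxcl12* and for *Cxcl14* in the osteogenic-like cells. The panels were chosen by adjusted p, and in these populations 46.2 to 55.6% of all genes tested had groups that did not overlap.

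Because *Cxcl14* differed in both directions, the question was whether its response differed between populations. A test of the interaction of population and genotype over the 12 mesenchymal populations, with a term for every library, called *Cxcl14* (adjusted p = 0.00254, F = 5.09 for 11 interaction terms, edgeR quasi-likelihood test), against 9.39% of 12859 genes called. *Ackr3* (adjusted p = 0.0813), *Cxcl1* (0.690) and *Cxcl12* (0.882) were not called. Without DTA- replicate 2 the value of *Cxcl14* was 0.0967.

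*Cxcl12* was higher in the DTA+ mean in 15 of the 16 populations where it was tested and in 12 of 12 mesenchymal ones, with a median log2 fold change of 0.53 over the latter. The groups did not overlap in 8 of those 12, where between 33.5% and 55.6% of all genes, with a median of 44.4%, had groups that did not overlap. The 15 include the red blood cell-like cells, at 78.7 and 49.3 CPM against 79.3 and 125, without overlap (0.62 ± 0.31, adjusted p = 0.546, edgeR). These populations share 4 libraries and are not independent. Over all mesenchymal cells *Cxcl12* stood at 120 and 105 CPM against 133 and 167, a difference of 0.42 ± 0.15 (adjusted p = 0.226).

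Among the populations, only the difference in cluster 6 was called for *Cxcl12*. Of the single clusters tested alone, cluster 7, a proliferative one led by *Top2a*, also gave a call, at 40.05 and 48.2 CPM against 66.7 and 98.5 (0.94, adjusted p = 0.0258). The nearest other value was in cluster 0, led by *Sostdc1* and *Wnt16*, at 19.3 and 14.4 CPM against 34.8 and 30.9 (0.98 ± 0.23, adjusted p = 0.0517). In every library *Cxcl12* in clusters 7 and 0 was below its level in the red blood cell-like cells, and in cluster 6 it was above. The part of stray transcripts in the differences was not tested. The neural cells were the exception in direction, at 467 and 425 CPM against 388 and 357 (-0.26 ± 0.20, adjusted p = 0.951).

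*Cxcl1* had lower DTA+ means in 5 of 8 mesenchymal populations and higher ones in 3. In the periurethra-like cells it stood at 18.9 and 31.1 CPM against 11.4 and 6.56 (-1.53 ± 0.35, adjusted p = 0.0593), without overlap. In the corpus cavernosum-like cells, where it stood at 8.38 and 37.4 CPM against 12.7 and 2.48, the groups overlapped (-1.57 ± 0.58, adjusted p = 0.109). In the general prepuce-like cells the spread within a genotype was larger than the difference, at 30.8 and 207 CPM against 112 and 6.63 (-0.93 ± 0.79, adjusted p = 0.999).

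Outside the mesenchyme, *Cxcl1* stood at 16.8 and 50.5 CPM against 76.8 and 107 in the endothelium-like cells (1.47 ± 0.43, adjusted p = 0.843). In the pericyte-like cells it stood at 67.4 and 573 CPM against 1053 and 573 (1.14 ± 0.40, adjusted p = 0.505). DTA- replicate 1 was the lowest library for *Cxcl1* in both, held 21 of the 209 pericyte-like cells, and had the lowest summed level of 18 dissociation stress genes over all cells, at 9879 CPM against 15028 to 19228 in the other libraries. In the pericyte-like cells that sum was 7313 and 16629 CPM against 23304 and 18408, and its part in these differences was not tested.

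*Ccl2* showed no called difference. It stood at 727 and 1478 CPM against 1268 and 2042 in the macrophage-like cells (0.58 ± 0.30, adjusted p = 0.942) and at 96.2 and 309 against 512 and 353 in the pericyte-like cells (0.91 ± 0.31, adjusted p = 0.496). The groups overlapped in the former and not in the latter. In the general prepuce-like cells DTA- replicate 2 alone was high, at 26.8 and 241 CPM against 46.8 and 28.3 (-1.82 ± 0.64, adjusted p = 0.434).

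*Ccl7* and *Ccl11* were each tested in 2 populations, with no call. In the macrophage-like cells *Ccl7* stood at 311 and 917 CPM against 849 and 1134 (0.68 ± 0.37, adjusted p = 0.942), and DTA- replicate 1 was again the lowest. In the pericyte-like cells *Ccl11* stood at 231 and 224 CPM against 322 and 495 (0.83 ± 0.27, adjusted p = 0.446), and the groups did not overlap. With 222 macrophage-like and 209 pericyte-like cells in all, only 0.184% of 4338 genes were called in the pericyte-like cells.

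For the receptors, *Cxcr4* stood at 209 and 80.7 CPM against 72.5 and 56.7 in the mast cell-like cells (-1.15 ± 0.52, adjusted p = 0.899), and at 113 and 79.1 against 114 and 74.0 in the macrophage-like cells (-0.0067 ± 0.33, adjusted p = 0.999). The first difference rested on 1 high DTA- library and the second groups overlapped. The mast cell-like cluster also carried neutrophil genes, and which of its cells held *Cxcr4* was not tested. *Ackr3* had lower DTA+ means in 9 of 12 mesenchymal populations, none of them called. Its smallest adjusted p was in cluster 0, at 78.6 and 72.6 CPM against 37.2 and 50.3 (-0.78 ± 0.20, adjusted p = 0.0683), and DTA+ replicate 1 was the lowest library there and over all cells.

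**Figure D4:**
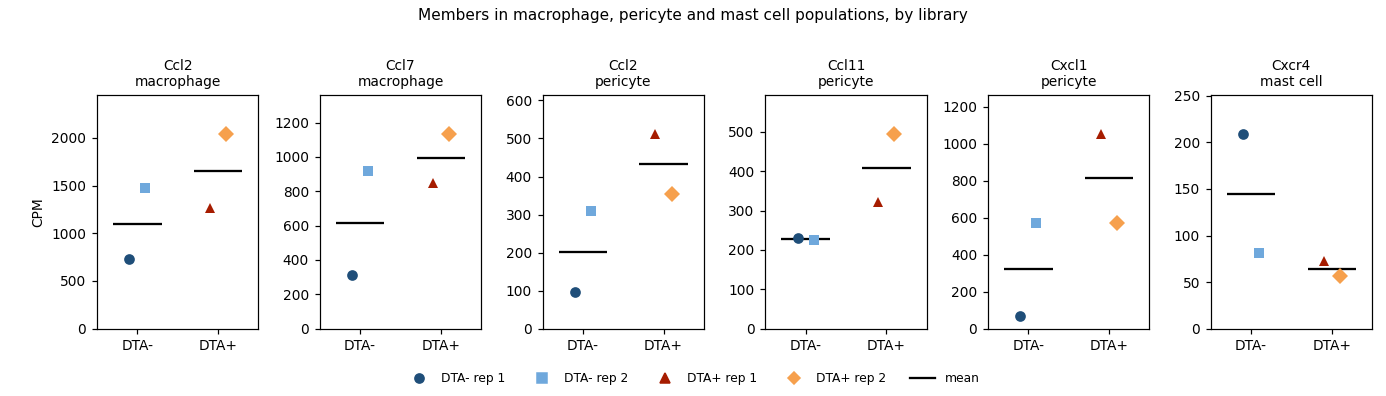
Levels (CPM, vertical axis from 0) of *Ccl2* and *Ccl7* in the macrophage-like cells, of *Ccl2*, *Ccl11* and *Cxcl1* in the pericyte-like cells and of *Cxcr4* in the mast cell-like cells (panels), with 1 point per library and the group mean as a horizontal line. DTA- replicate 1 is the lowest library for *Cxcl1* and *Ccl2* in the pericyte-like cells and for *Ccl2* and *Ccl7* in the macrophage-like cells.

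The rest of the chemokine system was taken from fixed lists. Of 31 other ligand genes in the files, 16 could be tested in at least 1 population (54 tests), and 3 tests passed, all higher in DTA+. Of 22 other receptor genes, 8 could be tested (25 tests), and 3 tests passed, all higher and all of *Ackr4*. These counts stand against 2.81% of all gene and population pairs. The highest gene by mean level was *Pf4*, which encodes platelet factor 4 and is a macrophage marker here, at 4410 and 6819 CPM against 3951 and 4547 in the macrophage-like cells.

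*Ackr4*, which encodes a scavenger receptor of CCL19, CCL21 and CCL25, stood at 14.2 and 7.16 CPM against 48.3 and 32.1 in cluster 6 (1.84 ± 0.32, adjusted p = 0.000657). In the corpus cavernosum-like cells it stood at 5.71 and 3.58 CPM against 11.7 and 11.3 (1.29 ± 0.36, adjusted p = 0.0392). In the distal glans-like cells it stood at 52.0 and 31.3 CPM against 89.9 and 74.1 (0.93 ± 0.21, adjusted p = 0.0216, 3.57% of 11321 genes called). *Ackr4* thus rose in 3 populations, in 2 of which *Cxcl14* fell. In the red blood cell-like cells *Ackr4* stood at 21.8 and 18.8 CPM against 21.4 and 40.3. The corpus cavernosum-like cells were below this in every library and the distal glans-like cells above it. Cluster 6 was above it in DTA+ replicate 1 only.

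*Cxcl13*, a B cell attractant, had 0 UMIs in both DTA- libraries and 25 and 13 in the DTA+ libraries of the general prepuce-like cells, which is at least 10.4-fold higher against 3 counts over the DTA- group (adjusted p = 0.0193, edgeR, 0.612% of 10460 genes called). The gene was highest in the untested cluster 16, at 94.7 and 90.7 CPM in the DTA+ libraries (139 and 83 UMIs). That cluster held 3 and 8 DTA- cells against 560 and 311 DTA+ cells. The part of cluster 16 cells or their transcripts in the general prepuce-like result was not tested. *Cxcl15* stood at 0.356 and 0 CPM against 35.2 and 10.1 in the periurethra-like cells (6.42 ± 1.05, adjusted p = 0.0136). *Cxcl2*, a neutrophil attractant like *Cxcl1*, stood at 0 and 21.2 CPM against 231 and 68.7 in the pericyte-like cells (3.29 ± 0.60, adjusted p = 0.0089). All 3 were higher in both DTA+ libraries than in both DTA- libraries.

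Lists of NF-κB genes, of genes that tissue dissociation raises and of genes that glucocorticoids induce were counted in the 4 populations with a called member. Their counts stand against 12.4% of all genes called in cluster 6, 7.13% in the corpus cavernosum-like, 2.92% in the osteogenic-like and 2.89% in the periurethra-like cells. Of 16 NF-κB feedback and target genes, 10 were tested in cluster 6 and 2 fell, *Icam1* (-1.69, adjusted p = 0.0311) and *Nfkbia* (-1.17, adjusted p = 0.00395), with a list median of -0.53 against 0.01 for all genes. Their summed level there was 427 and 731 CPM against 345 and 428. In the corpus cavernosum-like cells 2 of 12 fell, *Nfkbia* (-1.17) and *Vcam1* (-0.73), with a median of -0.64, in the osteogenic-like cells 1 of 9 fell, *Vcam1* (-1.32), and in the periurethra-like cells 0 of 11 passed in edgeR (3 at an unadjusted p under 0.05), with a median of -0.34.

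The dissociation stress genes that were called went in different directions in these populations. In the osteogenic-like cells 9 of 18 rose and 0 fell, among them *Dusp1* (1.34, adjusted p = 0.000241), *Nr4a1* (1.18, adjusted p = 0.014) and *Ier3* (1.07, adjusted p = 0.0386), with a median of 0.73. In cluster 6 4 of 18 fell and 0 rose, among them *Hspa1a* (-1.86), *Atf3* (-1.78) and *Hsp90aa1* (-1.02), with a median of -0.43. *Atf3* overlapped between the groups, at 43.6 and 353 CPM in the DTA- libraries against 30.1 and 80.9 in the DTA+ libraries. The summed level of the list in cluster 6 overlapped too, at 16120 and 20920 CPM against 15569 and 22404. In the corpus cavernosum-like cells 1 of 18 fell, *Hspa1a* (-1.73), and in the periurethra-like cells 0 of 18 passed in edgeR (2 at an unadjusted p under 0.05).

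Of 12 genes that glucocorticoids induce, 6 of the 10 tested in cluster 6 fell and 0 rose, with a median of -1.80. *Mt1*, which encodes a metallothionein, stood at 143 and 293 CPM against 3.96 and 1.93 (-6.21, adjusted p = 9.82e-09), with *Mt2* at -5.90 and *Fkbp5*, an inhibitor of glucocorticoid receptor activity, at -2.86. In the periurethra-like cells 6 of 11 fell, led by *Fkbp5* at 125 and 120 CPM against 5.70 and 2.68 (-4.98, adjusted p = 0.000182), *Mt2* (-4.15) and *Mt1* (-2.98), with a median of -1.65. In the corpus cavernosum-like cells 3 of 10 fell, *Mt1* (-3.51), *Zbtb16* (-2.98) and *Fkbp5* (-2.47), and 1 rose, *Sgk1* (1.96), named after its value was seen, with a median of -0.67. In the osteogenic-like cells 1 of 9 fell, *Fkbp5* (-2.66), and 1 rose, *Dusp1* (1.34), which is also on the stress list, with a median of -0.59. The part of these 3 lists in the differences of the members was not tested.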

How the data were processed

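Unique molecular identifier counts per gene and cell were deposited by the authors as 1 matrix per library, made per the labels with Cell Ranger 4.0.0 on mm10, with *tdTomato* and *eGFP* entries added. The study's limits were read as the range to keep, which is over 1000 and under 7500 UMIs per cell, and up to 25% of them mitochondrial, 25% from Hba genes and 50% from Hbb genes. Cells were clustered in Seurat 5.3.0 (R 4.3.3) on 2000 variable genes less 34 chemokine system genes, with 30 principal components at resolution 0.8. The automatic threshold of Scrublet (scanpy 1.11.5) marked 0 cells as doublets, so none was removed, and an alternative left out 1029 to 1266 cells of highest score per library.

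A cluster was named where at least 3 listed markers were enriched (in at least 5% of cells, log2 fold of at least 0.8 on CPM + 10) and at least 1 was among its top 10 genes, thresholds set after the data were seen. Clusters of 1 name were joined. The members and all gene lists were chosen with earlier results of these data known. Counts were summed per library and population and tested by the quasi-likelihood method of edgeR 4.0.16, with genotype as the only term, TMM scaling, the filterByExpr filter and Benjamini-Hochberg adjustment over all genes tested. Alternatives were DESeq2 1.42.0, the likelihood ratio test, other size factors, no filter, blocks, omitted libraries, other clusterings, doublets and thinned cells. Members, called genes of the listed chemokine system (up to 6) with the highest by mean, and up to 3 called genes of each list were named. Standard errors stand beside log2 fold changes.

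In simulated counts, the tests over all cells, all mesenchyme and the 4 populations with a call found 40.6 to 69.4% of genes with a log2 change of 1 and 90.9 to 97.9% of those with a change of 2. These counts took the spread of each gene from the same 4 libraries. In the interaction test 9% and 62% were recovered. There every gene had the same set spread, populations were drawn independently, and each changed gene differed in a single population. The rates may differ from those of the real tests. Between libraries with the same replicate number the deviations from group means correlated at -0.23, and the numbers are not taken to pair the libraries. No column of another sample was in the files.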

Additional observations from a re-analysis of the deposited data

Results flagged for a closer look

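The response of *Cxcl14* to the genotype differed between the 12 tested mesenchymal populations by the test of the interaction itself (adjusted p = 0.00254, edgeR quasi-likelihood test). It fell in cluster 6, the periurethra-like cells and the corpus cavernosum-like cells (-0.89, -0.92 and -0.73 on the log2 scale) and rose in the osteogenic-like cells (0.79). With each library left out in turn the adjusted p was 0.0178, 0.0967, 0.00085 and 3.5e-05 without DTA- replicates 1 and 2 and DTA+ replicates 1 and 2. In cells thinned to 1000 UMIs it was 0.00174. The cause of the difference between populations was not tested.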

How the results depend on the processing

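Against 6 calls over the cell populations, 20 were made with no filter on low counts and 2 in thinned cells, *Cxcl14* in cluster 6 and in the corpus cavernosum-like cells. *Cxcl1* in cluster 6 did not pass the filter on low counts in thinned cells. Leaving out each replicate gave 12 to 17 calls, where 1 genotype then has a lone library assumed to vary like the other genotype. With the replicate number as a block there were 10, and with the numbers crossed between genotypes as a block there were 18, 1 over all cells and 3 over all mesenchyme. Over all cells 0 members were called, and 0 to 1 with a replicate left out. Over all mesenchyme 0 were called, 1 with no filter and 0 to 2 with a replicate left out. In the interaction test 1 was called, 2 by the likelihood ratio test, 4 with no filter, 2 at resolution 0.4 and 0 to 2 with a replicate left out. DESeq2 did not call *Cxcl14* in the corpus cavernosum-like cells (adjusted p = 0.0838). *Cxcl12* in cluster 6 was lost without DTA+ replicate 1 (0.194) or DTA+ replicate 2 (0.0863) and in thinned cells (0.156), and *Cxcl14* there without DTA+ replicate 1 (0.0511). None of the 6 calls reversed in an alternative that could be tested. For cluster 6 the finer division (resolution 1.2) gave no test. Its most similar cluster held 45 and 19 DTA- cells against 431 and 436 DTA+ cells, under the limit of 20 cells in every library. Over all cells *Ccl2* turned from -0.31 to 0.035 with the replicate block and 0.065 with no upper UMI limit. With a replicate left out *Ccl2* ranged from -1.02 to 1.15, *Ccl7* from -0.13 to 1.76, *Cxcl1* from -1.40 to 1.09, *Cxcl14* from -0.24 to 0.72 and *Ackr3* from -0.79 to 0.13. The share of cells with *Ackr3* differed by -2.86 percentage points unthinned and -0.092 thinned. The causes were not tested.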
